A study of Mus musculus with 6 samples.

Results

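The genes described are 3 classical cadherins (Cdh1, Cdh2 and Cdh11), 6 transcription factors of the epithelial to mesenchymal transition (Snai1, Snai2, Zeb1, Zeb2, Twist1 and Twist2) and the intermediate filament gene Vim, in the accessible chromatin of mouse osteoblasts. They were chosen by name and not by their values. Peaks of 6 ATAC-seq libraries were merged wherever they shared 1 bp, which gave 89410 regions. The 81 regions that overlapped the span of 1 of the 10 genes in the RefSeq annotation of GRCm38, extended by 50 kb on each side, are described here.

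The libraries came from an immortalized mouse osteoblast line. The first group, OB Fam20c f/f, carries floxed alleles of Fam20c, the kinase that phosphorylates secreted proteins, and the second, OB Fam20c KO, was made from it with a lentivirus that carries Cre recombinase. All 6 libraries thus share the floxed and immortalized background, the f/f cells are the parent line, and the sources used here do not say whether the KO cells are 1 clone or whether the 3 libraries of a group came from separate cultures. Tn5 transposase, which cuts accessible DNA and leaves sequencing adapters in it, was applied to 50000 nuclei per library for 30 min at 37 °C.

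Cadherins are transmembrane proteins that bind the same cadherin on the next cell and are tied to the actin cytoskeleton by catenins. E-cadherin, the product of Cdh1, holds epithelia together. Cells of mesenchymal type, osteoblasts among them, use N-cadherin (Cdh2) and cadherin-11 (Cdh11, first named osteoblast cadherin) instead. In the epithelial to mesenchymal transition the Snail and Zeb repressors bind E-box sequences of the Cdh1 promoter, the Twist factors act with them, and vimentin replaces keratin filaments. The microRNAs of the miR-200 family repress Zeb1 and Zeb2. In bone, Twist1 and Twist2 are also known to restrain Runx2, the master factor of osteoblasts.

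The lists held between 32958 and 74797 peaks. KO replicate 3 had the shortest list, and the other 5 lists held 62781 or more, so that each result below is given with and without that library where it mattered. The targeted gene, Fam20c, had a peak at its start in all 6 libraries, and peaks cannot check whether its floxed exons were removed. By the percentile among shared regions explained below, this start stood at 84.5, 89.1 and 82.4 in f/f and at 95.3, 92.0 and 94.6 in KO, a difference of 8.59 ± 1.93 points (limma, adjusted p = 0.0134), and 1 region in the flank of Fam20c, chr5:138740270-138740641, had a peak in all f/f and no KO library. Of 8 osteoblast marker genes, Runx2, Sp7, Col1a1, Col1a2 and Spp1 had a peak within 1 kb of a gene end in all 6 libraries, Alpl had one in 5, and Ibsp and Bglap had none in any. Of the markers of 6 other cell types (2 or 3 genes each), those with such a peak in all 6 libraries were Spi1 of blood, Krt8 of epithelium and Sox9 of cartilage. Such a peak was also found at Col2a1 of cartilage in 5 libraries, at Myod1 of muscle in 4 and at Cdh5 of endothelium in 2, and at the other genes in none. The part of these cell types in the results was not tested.

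The number of regions with a peak at the 10 genes did not separate the groups. It was 64, 61 and 68 in f/f replicates 1 to 3 and 68, 69 and 37 in KO replicates 1 to 3. The KO mean was lower by 6.33 regions, with p = 1 in a two-sided exact permutation test that cannot go below 0.1. KO replicate 3 alone lay under the f/f range. Without it the sign turned, to a KO mean 4.17 regions higher (exact permutation p = 0.3), and with the same number of peaks taken from every list the difference was 0. Where a library had no peak, the signal did not pass the threshold of the authors' peak caller, which does not show that the chromatin was closed.

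**Figure D1:**
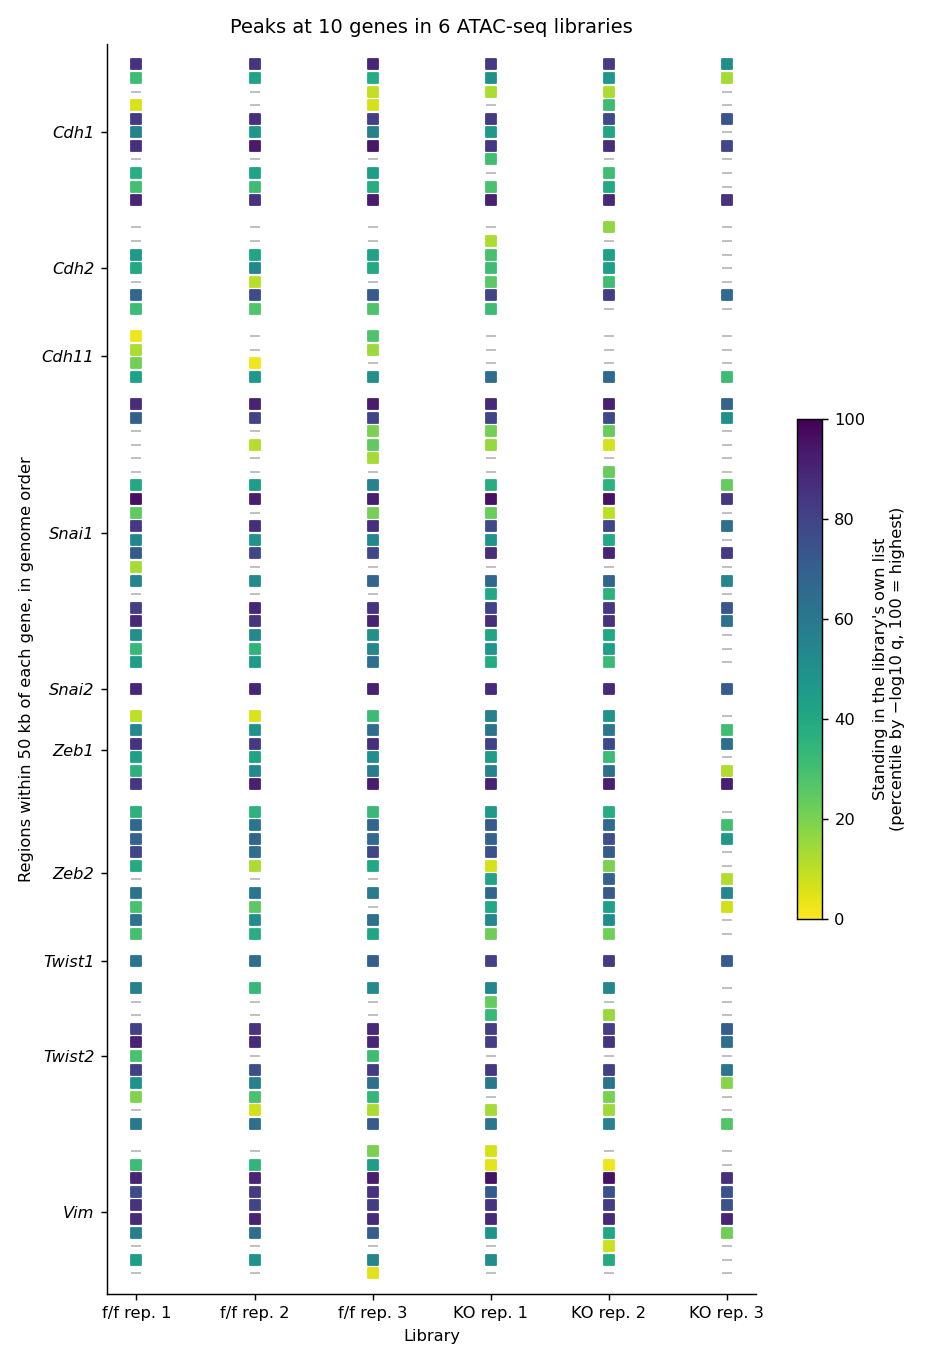
Each row is 1 of the 81 regions, grouped by gene, and each column a library. A square marks a peak, coloured by its percentile within that library's own list by −log10 q, and a dash marks no peak; most rows are filled in the first 5 libraries, while KO replicate 3 has 37 squares.

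A peak was found in all 6 libraries in 35 of the 81 regions, a share of 43.2% beside 33.4% of all regions. A further 18 (22.2%) were missing in KO replicate 3 only, beside 19.2% of all regions. Regions seen in a single library numbered 9 (11.1%), beside 19.8% of all regions. Not 1 region at these genes had a peak in all f/f and in no KO library, a pattern of 3.75% of all regions. The reverse pattern, a peak in all KO and in no f/f library, was found in 1 region, beside a share of 0.179% over all regions. Both counts are small. With a peak in at least 2 of 3 libraries as the rule they became 4 and 3, or 4.94% and 3.70%, beside 8.54% and 2.98% of all regions. Without KO replicate 3 the regions particular to KO were 3. KO replicates 1 and 2 alone had a peak in 2 further regions, 1 at Snai1 and 1 at Twist2, where 2.72% of all regions have that pattern.

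The differences in strength were measured by standing. The standing of a region in a library is its percentile by −log10 q, 100 being the highest, among the 29849 regions that every library shares. Every library is thus ranked over the same regions. These are 29849 of the 31974 regions of KO replicate 3, but of 61549 to 73946 in the other libraries. How far the length of the lists still bears on the ranks was not tested. Unless another scale is named, standings and their differences below are on this scale, and differences are KO minus f/f in percentile points. Standings were compared by limma with Benjamini-Hochberg adjustment over all 29849 regions. Of the 35 regions at the 10 genes, 6 stood higher and 2 lower in KO, shares of 17.1% and 5.71%, beside 12.6% and 11.3% of all regions tested. An unadjusted p under 0.05 was found for 12 of the 35, beside 11266 of all 29849 regions. The median difference of the 35 regions was 3.01 points, beside −0.24 points over all regions. The groups did not overlap, with all 3 KO libraries above all 3 f/f libraries, in 7 regions, and in the opposite order in 7, where the shares over all regions were 21.1% and 20.9%. These counts lie near the background of the whole comparison and are not a result about the 10 genes as a list, so that what follows describes single regions.

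The calls depended on the value ranked. When regions were ranked by fold over the local background at the summit, limma called 0 of the 35 in either direction. It called 0.754% and 0.63% of all regions higher and lower. By fold an unadjusted p under 0.05 was found for 4 of the 35, beside 6006 of all 29849 regions. When regions were ranked by −log10 q within the whole lists, limma again called 0, and the unadjusted p was under 0.05 in 2. When KO replicate 3 was left out, 53 regions had a peak in the other 5 libraries, and 5 stood higher and 4 lower in KO (11.6% and 10.9% of all regions). The count of regions lower in KO fell to 0 without f/f replicate 2, f/f replicate 3 or KO replicate 1, and to 1 without KO replicate 2.

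**Figure D2:**
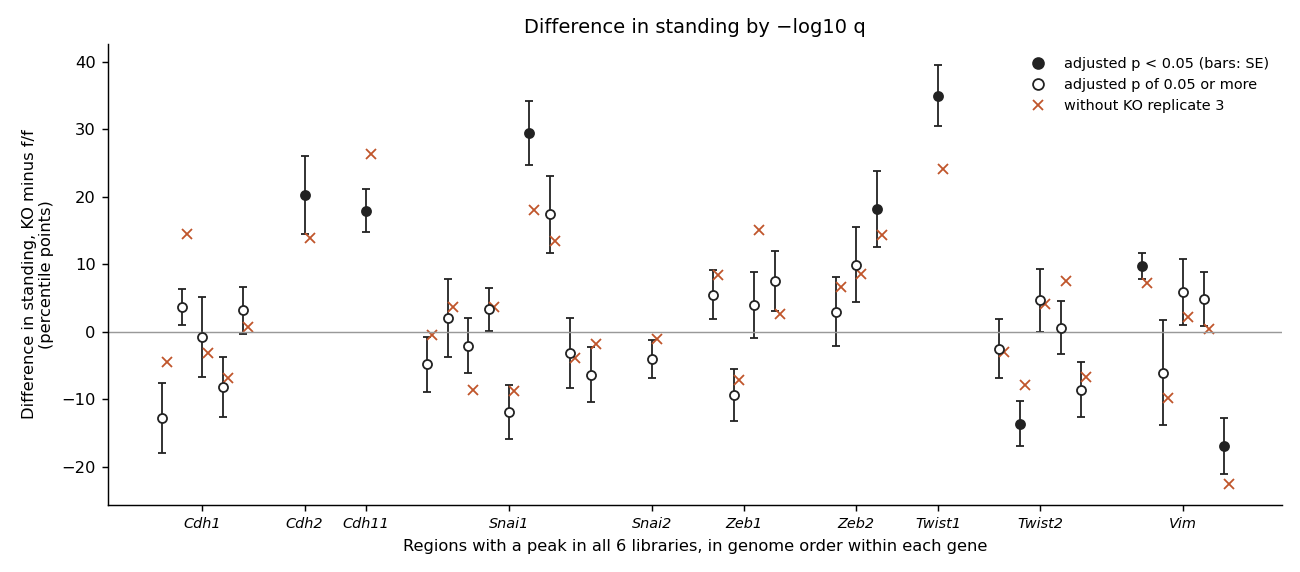
Points give the difference in standing by −log10 q, KO minus f/f in percentile points, of the 35 regions shared by all 6 libraries, with the SE of limma as bars; filled points passed an adjusted p of 0.05. Crosses give the same region without KO replicate 3, ranked among the regions shared by the other 5 libraries. Of the 35 points, that of Twist1 has the largest difference.

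Twist1, a basic helix-loop-helix factor needed for cranial mesenchyme that holds back osteoblast differentiation, had the largest difference by −log10 q with all 6 libraries. Its window held 1 region, chr12:33956761-33959096, which covered the annotated start at position 33957671. Its standing was 25.9, 29.7 and 30.7 in f/f replicates 1 to 3 and 58.9, 63.9 and 68.4 in KO replicates 1 to 3. All KO libraries lay above all f/f libraries, and the gap between the groups was wider than the range within either. The difference was 34.98 ± 4.55 points (SE, adjusted p = 0.00141), and it was 24.2 points without KO replicate 3 (adjusted p = 0.00254). Ranked by fold, the standing was 15.4, 18.9 and 17.0 in f/f and 35.7, 39.9 and 71.4 in KO. This kept the order of the groups with a wider spread in KO (31.9 points, adjusted p = 0.135). The rank of Twist1 depended on the setting. By fold the region at Gm11476 near Snai1 differed more (36.4 points). Without KO replicate 3 the regions at Cdh11 (26.3 points) and in a flank of Zeb1 (33.2 points) did.

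The promoter of Twist1 is shown because its region held the largest difference by −log10 q with all 6 libraries. Also shown are those of Snai1, whose start is in one of the strongest regions, and of the Zeb2 start that was called. Each sequence is the 250 bases before a RefSeq start on GRCm38.p6, in the direction of the gene. Capitals mark the E-box CANNTG, the CCAAT box, the GC box GGGCGG and the TATA box TATAAA, on either strand.
Twist1, chr12:33957421-33957670, plus strand: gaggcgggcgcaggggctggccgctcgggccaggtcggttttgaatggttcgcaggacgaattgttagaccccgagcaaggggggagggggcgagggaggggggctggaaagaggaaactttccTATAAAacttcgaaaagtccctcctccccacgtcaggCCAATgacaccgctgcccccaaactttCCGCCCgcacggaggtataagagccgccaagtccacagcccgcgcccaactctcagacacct
Snai1, chr2:167537945-167538194, plus strand: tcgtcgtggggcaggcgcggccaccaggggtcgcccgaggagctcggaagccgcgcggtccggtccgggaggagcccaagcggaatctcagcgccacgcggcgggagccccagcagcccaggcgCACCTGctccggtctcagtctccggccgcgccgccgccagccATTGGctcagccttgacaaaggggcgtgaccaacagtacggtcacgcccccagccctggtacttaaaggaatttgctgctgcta
Zeb2, chr2:45110278-45110527, minus strand: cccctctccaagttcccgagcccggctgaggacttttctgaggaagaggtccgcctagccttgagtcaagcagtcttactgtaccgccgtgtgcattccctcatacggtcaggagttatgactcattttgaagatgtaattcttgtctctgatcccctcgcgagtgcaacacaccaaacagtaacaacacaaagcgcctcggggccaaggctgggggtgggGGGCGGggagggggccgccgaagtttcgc

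These motifs were chosen after the values were seen, were searched on both strands in the 300 bases from 250 before to 50 after each start, and are a match of letters only. RefSeq gave such windows for Snai1, Twist1, Twist2, Vim and 4 starts of Zeb2, and all of them overlapped a region. The E-box CANNTG was found in 72.3% of 32851 windows of the annotation. Among the members' windows it was found only in that of Snai1, as CACCTG, 126 bases before the start. The narrower form, CACCTG on either strand, which the E-box CANNTG contains, was in 20.2% of all windows. The window of Twist1 held 1 TATAAA 126 bases, 1 CCAAT 89 bases and 1 GC box 62 bases before the start, motifs found in 13.6%, 37.4% and 35.7% of all windows. Vim had a TATAAA 32 bases before its start. The GC content was 70.0% for Snai1, 66.0% for Twist1, 64.7% for Twist2 and 59.3% for Vim, beside a median of 52.7% over all windows. The 4 windows of Zeb2 had 49.3%, 52.7%, 52.7% and 60.7%, the last at the start that was called.

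Twist2, the close relative of Twist1, differed from it in the number of regions and in the direction of the called one. Its window held 11 regions, 5 of them with a peak in all 6 libraries. At its start, chr1:91800583-91802439, the standing was 58.7, 68.2 and 70.9 in f/f and 61.0, 61.1 and 68.1 in KO, so the groups overlapped (−2.51 points, adjusted p = 0.714). A region inside the gene, chr1:91815827-91817287, which also overlapped the annotated gene Gm46117, had the highest mean standing at Twist2 and stood lower in KO. It had values of 79.3, 75.5 and 74.4 in f/f and 61.3, 67.0 and 60.2 in KO. All KO libraries lay below all f/f libraries, with a difference of −13.6 ± 3.33 points (adjusted p = 0.0191; −7.80 points and 0.0188 without KO replicate 3). The call was lost without any 1 of the f/f replicates or without KO replicate 1, with adjusted p between 0.0518 and 0.0592, and by fold the difference was −0.98 points. Exons were not used here, so whether regions inside a gene lie in exons or introns is not given. One region in the flank of Twist2, chr1:91781290-91781669, was that with a peak in KO replicates 1 and 2 alone, at 33.0 and 15.5 in their own lists.

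**Figure D3:**
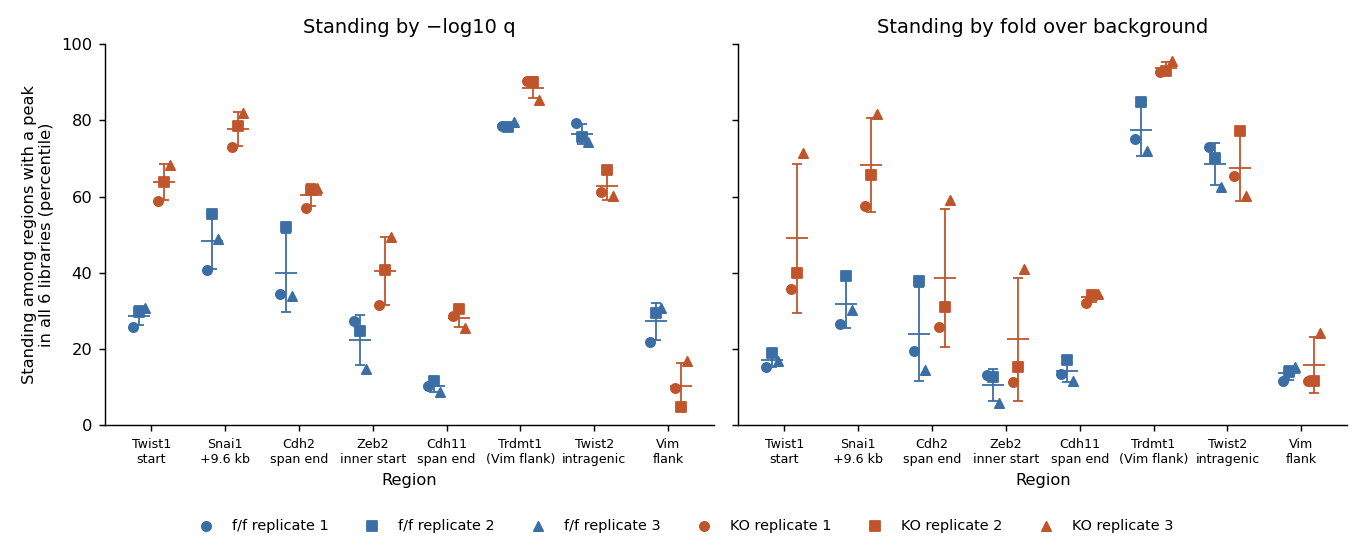
Standing of the 8 called regions in each library, by −log10 q on the left and by fold over the local background on the right, both in percentiles among the regions shared by all 6 libraries. Points are libraries and bars the mean ± SD of 3; on the left no region has overlapping groups, while on the right the groups of Cdh2, Zeb2, Twist2 and the Vim flank overlap.

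The Snail genes encode zinc finger repressors of Cdh1. Snai1 had the most regions, 20, of which 18 lay in its flanks, and 9 had a peak in all 6 libraries. Its start was in chr2:167537616-167538707, the region with the highest mean standing of those at Snai1. There the standing was 91.0, 82.6 and 79.1 in f/f and 90.1, 90.0 and 82.6 in KO, with overlapping groups (3.32 points, adjusted p = 0.493). The called region of this window, chr2:167552420-167553793, lay 9606 bp from the gene span and covered a start of Gm11476, a predicted gene, so it cannot be assigned to Snai1. Its standing was 40.7, 55.4 and 48.9 in f/f and 72.9, 78.4 and 81.9 in KO. All KO libraries lay above all f/f libraries, with a difference of 29.4 ± 4.75 points (adjusted p = 0.0035), 18.0 points without KO replicate 3 (adjusted p = 0.00524) and 36.4 points by fold (adjusted p = 0.0821). A region 201 bp from the Snai1 span, chr2:167543015-167544388, named after its values were seen, had 66.0, 72.5 and 66.3 in f/f and 52.9, 56.1 and 60.3 in KO. The KO libraries were all lower, by 11.9 points in the mean, which did not pass the test with all 6 libraries (adjusted p = 0.0599) and did without KO replicate 3 (−8.77 ± 2.33 points, adjusted p = 0.0251). A flank region with a peak in KO replicates 1 and 2 alone, chr2:167565764-167566036, lay within the same predicted gene and had percentiles of 39.9 and 35.7 in the lists of KO replicates 1 and 2.

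Snai2, also called Slug, had a single region within its window, chr16:14704899-14706525, at the lower end of the gene span. Its standing was 77.1, 77.3 and 77.1 in f/f and 74.7, 76.3 and 68.5 in KO. The KO values were all lower, by 4.0 points in the mean, which did not pass the test (adjusted p = 0.335), and the difference was −1.06 points without KO replicate 3. Snai1 and Snai2 thus both had a strong region at a gene end in every library, with means of 73.2 to 87.6 in the 2 groups.

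The Zeb genes encode repressors with zinc fingers and a homeodomain. At Zeb2, 10 regions were found, 3 of them shared by all 6 libraries, and 3 covered an annotated start. The start at the edge of the gene span, position 45117442, was in chr2:45116497-45117576, which had percentiles of 62.4, 51.1 and 63.9 in the f/f lists and 54.3 and 52.1 in KO replicates 1 and 2, and no peak in KO replicate 3. A second pair of starts was in chr2:45112959-45113300, which also overlapped the annotated gene Zeb2os. It had a peak in 5 libraries and the lowest percentiles of the 3. The start at position 45110277, whose sequence is shown above, was in chr2:45108606-45111261, which overlapped Zeb2os as well. Its standing was 27.4, 24.7 and 14.9 in f/f and 31.5, 40.8 and 49.3 in KO. The groups did not overlap, but the gap between them was smaller than the range within each (18.2 ± 5.62 points, adjusted p = 0.0451). This call was lost without any 1 library other than KO replicate 1, with adjusted p between 0.0651 and 0.172, and with the replicate number as a block (adjusted p = 0.0751).

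The 1 KO-only region was also inside Zeb2, at chr2:45067126-45067754, which is 629 bp wide. Its percentile in the list of each library was 41.8, 68.7 and 12 in KO replicates 1 to 3, and no f/f library had a peak there. It was middling in KO replicates 1 and 2 and near the bottom of the list in KO replicate 3, and with only peaks of a −log10 q of 5 or more it was no longer KO-only. The strongest region of the Zeb2 window by mean percentile, chr2:44968923-44969763 in the flank, had 78.7, 64.4 and 78.8 in f/f and 75.7 and 71.8 in KO replicates 1 and 2, and was missing in KO replicate 3.

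Zeb1 had 6 regions, all with a peak in the 5 libraries other than KO replicate 3, and 4 of them in KO replicate 3 as well. At the lower end of its span, chr18:5591538-5594151, the standing was 17.1, 13.1 and 22.3 in f/f and 23.6, 20.3 and 25.1 in KO, with overlapping groups (5.51 points, adjusted p = 0.302). Its strongest region, chr18:5818949-5820866, lay 43481 bp outside the span and had 66.5, 81.3 and 80.9 in f/f and 79.3, 81.5 and 90.5 in KO. Neither region was called. Without KO replicate 3 a region of the other flank, chr18:5583528-5584038, named after its values were seen, stood 33.2 ± 4.64 points higher in KO (adjusted p = 0.00165). In the lists it had 10.0, 5.6 and 32.0 in f/f and 56.7 and 48.5 in KO replicates 1 and 2. The other regions called only without KO replicate 3 stood lower in KO and are given with Snai1 and Vim.

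Among the cadherins, Cdh2 and Cdh11 had a peak at the upper end of the gene span in all 6 libraries. No library had a peak within 1 kb of either end of the Cdh1 span. The region of the window nearest to a span end, chr8:106608314-106608622, was weak, with a percentile of 9.6 in f/f replicate 3 and of 12.6 and 12.3 in KO replicates 1 and 2. The window nevertheless held 11 regions, 4 of them inside the gene, and 5 had a peak in all 6 libraries. An intragenic region at chr8:106619405-106620266, named after its values were seen, had a standing of 63.8, 70.9 and 55.1 in f/f and 64.4, 52.0 and 71.2 in KO. The groups overlapped there (−0.73 points). The strongest region of the window, chr8:106717946-106718853, lay inside the neighbouring gene Tango6, with a difference of 3.17 points (adjusted p = 0.55). None of the 5 regions was called.

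Cdh11, the cadherin most typical of osteoblasts, had 4 regions. The number with a peak was 4, 2 and 3 in f/f replicates 1 to 3 and 1 in each KO library. The groups did not overlap, and the exact permutation p was 0.1, the smallest that 3 libraries against 3 allow, but with the same number of peaks from every list KO had 1 region more than f/f. The 3 regions seen only in f/f were each in 2 f/f libraries and had percentiles between 2.2 and 27.9 in their lists, the weak end. The remaining region, chr8:102783724-102785574, covered the upper end of the gene span and moved the other way. Its standing was 10.4, 11.6 and 8.8 in f/f and 28.6, 30.6 and 25.6 in KO. All KO libraries lay above all f/f libraries, with a difference of 17.96 ± 3.17 points (adjusted p = 0.00497), 26.3 points without KO replicate 3 (adjusted p = 0.00689) and 19.5 points by fold (adjusted p = 0.0635).

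Cdh2, which encodes N-cadherin, had 7 regions, and only chr18:16807488-16809868 at the upper end of the span was shared by all 6 libraries. Its standing was 34.3, 51.9 and 33.9 in f/f and 57.1, 61.8 and 62.2 in KO. The KO libraries lay above all f/f libraries, f/f replicate 2 coming closest (20.3 ± 5.75 points, adjusted p = 0.0332). The difference stayed positive with each library left out, from 13.9 points without KO replicate 3 upwards, but passed the test only without f/f replicate 2, the adjusted p being 0.0519 to 0.121 without any other. The other 6 regions of Cdh2 had no peak in KO replicate 3, and 4 of them were found in 1 to 4 libraries, with percentiles of no more than 31.9 in the lists.

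**Figure D4:**
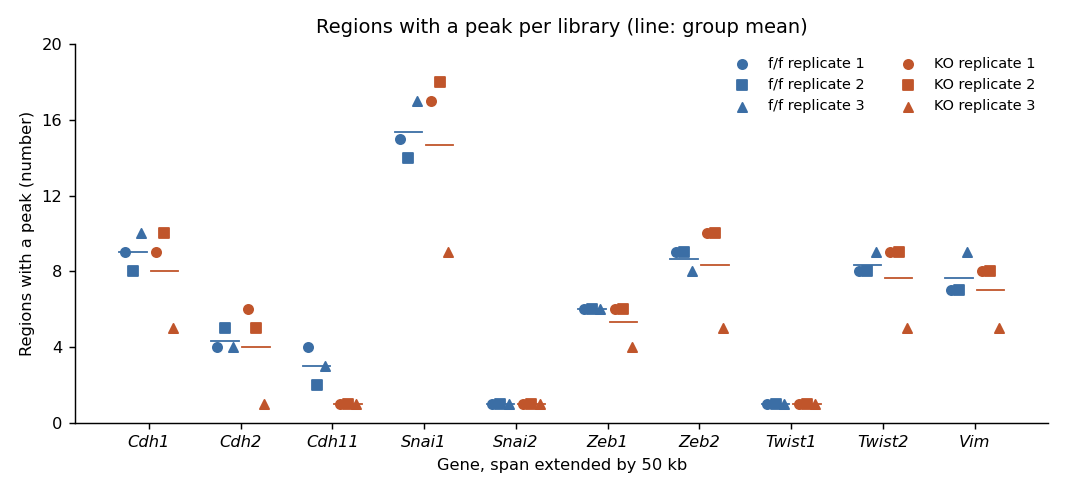
Number of regions with a peak for each gene and library, with group means as lines. KO replicate 3 (triangles) is the lowest library at 7 of the 10 genes; Cdh11 is the gene at which the groups do not overlap, with 2 to 4 in f/f and 1 in KO.

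Vim, the gene of the mesenchymal filament protein vimentin, was open at its start in every library. The region chr2:13573279-13575636 had a standing of 74.8, 80.2 and 70.5 in f/f and 76.2, 75.4 and 88.6 in KO, with overlapping groups (4.91 points, adjusted p = 0.409). By −log10 q in the whole lists it was at 88.2 to 90.6 in all 6 libraries, among the steadiest values of the window. By fold the standing of this start was neither high nor steady, with means of 15.4 in f/f and 34.3 in KO. KO replicate 3, at 67.3, lay above all other libraries there, and the difference was 18.9 points (adjusted p = 0.427). The region chr2:13583407-13584469, 581 bp beyond the gene span, stood lower in KO, with 21.8, 29.4 and 30.9 in f/f and 9.8, 4.7 and 16.8 in KO. The groups did not overlap (−16.9 ± 4.2 points, adjusted p = 0.0203; −22.5 points and 0.0199 without KO replicate 3). The call was lost without f/f replicate 2 or 3 or KO replicate 1 or 2, with adjusted p between 0.053 and 0.081, and by fold the sign turned, to 2.23 points (adjusted p = 0.77). The strongest region of the window, chr2:13543766-13545319, was at the start of Trdmt1, a neighbouring gene for an RNA methyltransferase. It had 78.4, 78.2 and 79.4 in f/f and 90.2, 89.9 and 85.3 in KO (9.78 ± 1.97 points, adjusted p = 0.00861). A further flank region, chr2:13525853-13526890, named after its values were seen, had no peak in KO replicate 3 and stood lower in KO without that library (−16.7 ± 3.39 points, adjusted p = 0.00848). Its percentiles in the lists were 31.9, 34.4 and 44.7 in f/f and 4.2 and 2.6 in KO replicates 1 and 2.

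The regions of Twist1, Cdh11, Gm11476 near Snai1 and Trdmt1 near Vim passed the test with each of the 6 libraries left out in turn, and those of Cdh2, Zeb2, Twist2 and the flank of Vim did not. Of the 8, 6 had higher standing in KO, and these lay at a RefSeq start or, at Cdh2 and Cdh11, at a span end. Regions at RefSeq gene starts were therefore counted as a second background, a class formed after the values were seen. Of 9371 such regions shared by all 6 libraries, 15.4% stood higher and 9.12% lower in KO, with a median difference of 0.48 points, and by fold their median difference was 4.72 points.

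The other genes of the pathway were 43 genes fixed as a list, with 435 regions in their windows. Of these, 12 were f/f-only (2.76%) and 0 were KO-only, beside 3.75% and 0.179% of all regions. Of the 156 shared by all 6 libraries, 13 stood higher in KO (8.33%) and 16 lower (10.3%), with a median difference of −2.79 points. Over all regions tested these were 12.6%, 11.3% and −0.24 points, so the called shares of the list were not above the background. The largest difference of those higher in KO was in the window of Cldn7, a claudin of epithelial tight junctions. This was chr11:69996623-69997545 (39.1 ± 4.56 points, adjusted p = 0.000875), and 3 other regions of the same window stood lower. No library had a peak within 1 kb of either end of Cldn7. The largest of those lower in KO was in the window of Pkp3, which encodes a desmosomal plakophilin. This was chr7:141058414-141059149 (−35.8 ± 5.46 points, adjusted p = 0.00278). In the window of S100a4, a calcium binding protein of migrating mesenchymal cells, chr3:90597782-90598536 stood 23.7 points lower (−23.7 ± 3.14 points, adjusted p = 0.00151). Distances to the genes and overlaps with neighbouring genes are not given for these regions, so they cannot be assigned to the genes named. Regions of one list thus moved both ways, also within one window. The calls of this list are given by −log10 q with all 6 libraries only, and not by fold or with a library left out.

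The genes of the list were also compared by whether a peak lay within 1 kb of either end of the gene span. This measure and the classes were formed after the values were seen and carry no test. Of the 10 members, 8 had such a peak in all 6 libraries, Zeb2 had one in 5 and Cdh1 had none. All 9 other mesenchymal genes had one in all 6 libraries, among them Prrx1, Acta2 and S100a4. Of 17 epithelial genes, 5 had one in all 6, namely Krt8, Cldn3, Pkp3, Esrp1 and Esrp2. Ovol2 and Elf3 had one in 5 libraries. The other 10, Epcam, Krt18, Krt19, Grhl2 and Tjp1 among them, had none. Of the 6 other cadherins, 0 had one in all 6 and 4 had none. Of 5 catenins, 3 had one in all 6, Ctnna1 and Jup among them, and Ctnna2 and Ctnnd1 had none. Starts farther inside a span, as at Zeb2, are not counted by this measure, so a gene without such a peak is not shown to be closed. Over all 21887 protein-coding genes the shares were 52.9% in all 6 and 37.2% in none.

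The loci of the miR-200 family, whose members target Zeb1 and Zeb2, had no region over them or within 1 kb in any library. The mature sequences from RefSeq are shown because they fall into 2 groups by seed, bases 2 to 8, which are in capitals and differ by 1 base. The first group is miR-200b, miR-200c and miR-429, and the second miR-200a and miR-141.
mmu-miR-200b-3p: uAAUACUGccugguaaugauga
mmu-miR-200c-3p: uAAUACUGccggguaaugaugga
mmu-miR-429-3p: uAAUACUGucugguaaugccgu
mmu-miR-200a-3p: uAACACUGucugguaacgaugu
mmu-miR-141-3p: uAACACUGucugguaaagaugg
The nearest region lay 3064 bp from miR-429, 4059 bp from miR-200a and 4833 bp from miR-200b on chromosome 4, and 4963 bp from miR-141 and 5370 bp from miR-200c on chromosome 6. Both clusters thus lay outside the merged regions. Regions within 50 kb of miR-200c moved both ways by −log10 q with all 6 libraries, the only setting given for them. Of these, chr6:124755656-124758579 stood higher in KO (23.1 ± 4.63 points, adjusted p = 0.00835), as did chr6:124768313-124770221 (16.1 ± 4.65 points, adjusted p = 0.0356), while chr6:124740281-124741845 stood lower (−11.3 ± 3.58 points, adjusted p = 0.0493) and chr6:124688268-124689500 was f/f-only.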

How the data were processed

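ATAC-seq libraries of the f/f and KO cells, 3 each, were grouped by their labels. The authors trimmed the reads, aligned them to mm10 with BWA and, with a q-value of 0.05 as the limit, called peaks per library by MACS2 2.1.2. For each peak, the deposited lists give the fold over the local background at the summit, which is a ratio, the −log10 p and the −log10 q, and a score that was not used. The fold and −log10 q depend on the depth and background of their library, so they were only ranked within a list. Read counts were not used here, and the lists do not give the depth.

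Peaks sharing 1 bp were merged into regions, each taking the highest value of its peaks per library. Gene spans came from RefSeq, GRCm38.p6, whose coordinates are those of mm10. The form used holds no strand, start or exon for most genes, and promoter windows were used for 5 of the members. Regions per library were compared by a two-sided exact permutation test over 20 assignments. Standings were compared with limma 3.58.1 (R 4.3.3, eBayes with trend) and Benjamini-Hochberg adjustment at 0.05 over all regions with a peak in all libraries compared. With a library left out, the regions merged from all 6 lists were kept and those without a remaining peak dropped. No source says that replicates came from separate cultures, so p-values measure the spread between libraries, which may be technical. The Spearman correlation of standings was 0.963 to 0.976 within f/f, 0.932 to 0.979 within KO and 0.86 to 0.905 between groups.

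The 10 genes, the lists and the tests were chosen with earlier results of these data known. Regions named were those at gene starts or the span end nearest a region, group-specific regions, called regions, the strongest region of each gene and those in KO replicates 1 and 2 alone. Of the other genes of the pathway, those with a called or group-specific region could be named. Exceptions, and markers, are named as such. Merging and limma were tested on simulated data. Python 3.11.15 with numpy 2.4.6, pandas 2.3.3 and scipy 1.17.1 was used.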

Additional observations from a re-analysis of the deposited data

How the results depend on the processing

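The number of regions per library kept its sign, or became 0, under the other alternatives, among them an overlap of 50% of the shorter peak, a −log10 q of 5 or more, flanks of 10 kb and gene spans alone. With a library left out it was −11.8 to 4.17, the latter without KO replicate 3. With equal numbers of peaks per list the difference per gene turned for Cdh11 (1), Zeb1 (0.667), Zeb2 (0.333) and Twist2 (0.333). f/f-only regions were 4 with a peak in 2 of 3 libraries, 1 with a −log10 q of 5 or more and 0 to 3 with a library left out. KO-only regions were 3, 0 and 1 to 3 in the same settings. Regions lower in KO were 0 by fold, 0 ranked within the whole lists, 1 with the same number of peaks, 1 in gene spans alone and 0 to 4 with a library left out. Regions higher in KO were 0 by fold, 0 within the whole lists and 4 to 5 with a library left out. Without the trend in limma the split was 5 higher and 3 lower. By fold the sign turned at the Twist2 start (0.40 points) and the Vim flank (2.23 points), and without f/f replicate 2 at the strongest Cdh1 region (−0.0017 points, the lowest of a range up to 5.71). The causes were not tested. Same-numbered libraries deviated with correlations of 0.068, −0.105 and −0.124, beside −0.17 to 0.188 for pairs of other numbers. With 3 libraries per group, these correlations cannot decide whether the numbers pair the samples. With the replicate number as a block the counts were the same, 6 higher and 2 lower, the Zeb2 start was no longer called (18.2 points, adjusted p = 0.0751), and the difference in regions per library was −6.33, where the exact permutation test cannot go below 0.25.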

Other observations

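The 2 genes of the 10 with the largest mean differences among those with 5 or more regions shared by all 6 libraries were Twist2 and Cdh1. For each, the mean standing by −log10 q over its regions was compared with that of protein-coding genes on other chromosomes with 5 or more such regions. The measure was the Euclidean distance over the 6 libraries. The nearest genes to Twist2 were Col2a1 at 1.62 points, Fxyd5 at 2.14 points and Eln at 2.36 points. Those nearest to Cdh1 were Phf13 and Klhl21, which share the same regions, at 2.32 points, and Ogfr at 2.45 points. Such distances describe these 6 libraries and carry no test.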
